A study of Homo sapiens with 8 samples.

Results

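The genes described here are PIR (pirin), HMOX1 (heme oxygenase 1) and 8 other genes that the transcription factor NRF2 is known to activate: NQO1, GCLM, GCLC, TXNRD1, SRXN1, FTL, FTH1 and OSGIN1. They were selected by name from the annotation of the arrays, with earlier results of the same arrays known, and HMOX1 and PIR were chosen for the pattern of their measured ratios. These 10 genes, of 43317 on the array, were read by 14 probes of 60 bases. The question was whether PIR and HMOX1 moved with the other targets.

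RNA of treated cells, labelled with Cy5, and RNA of mock-treated cells, labelled with Cy3, were hybridised together on 8 two-colour arrays. PC3 cells received bisamide for 24 h, bisamide for 48 h or miR-125b-1-3p. C4-2 cells received miR-199-3p, 786-O cells either strand of miR-532, and T24 cells either strand of miR-140. All 4 are established lines: PC3 and C4-2 come from prostate cancer, 786-O from renal cell carcinoma and T24 from bladder cancer. Bisamide (CCT251236) is a small molecule that binds PIR and was described as an inhibitor of the HSF1 stress pathway. Its dose, and the time after miRNA transfection, are not given in the labels. Each treatment had 1 array and the dyes were never swapped, so no test was possible, a dye effect of a probe cannot be told apart from a treatment, and every value below is a description of that array. Whether arrays of a line carried the same mock RNA is not stated in the labels.

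NRF2 is held in the cytoplasm by KEAP1, an adaptor of the CUL3 ubiquitin ligase that leads to its degradation. Oxidants and electrophiles modify KEAP1, and NRF2 then enters the nucleus, pairs with a small MAF protein and binds the antioxidant response element (ARE) of its target genes. BACH1, a heme-binding repressor, competes for the same elements and is known above all for silencing HMOX1. In cancer cells the pathway is known for protecting against oxidative stress and drugs. Not every target depends on NRF2 alone: HMOX1 also responds to heme, the ferritins are also controlled by iron, and PIR is an iron-binding nuclear protein that was described as a co-regulator of NF-kB.

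The 6 transfected strands are shown first, because they are the treatments of 6 of the 8 arrays. The mature sequences (RefSeq) are given 5′ to 3′ with the seed, bases 2 to 8, in capitals. The labels do not say whether miR-199-3p is the a or the b form, and both have the same mature sequence.
hsa-miR-125b-1-3p: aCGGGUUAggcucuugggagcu
hsa-miR-199a-3p: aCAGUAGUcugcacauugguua
hsa-miR-532-5p: cAUGCCUUgaguguaggaccgu
hsa-miR-532-3p: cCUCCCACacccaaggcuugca
hsa-miR-140-5p: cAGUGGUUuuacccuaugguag
hsa-miR-140-3p: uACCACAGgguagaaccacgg
The 6 seeds all differ. None of the 14 probes holds a stretch complementary to any of these seeds, a match that 0.0361% to 0.607% of all probes hold. A probe covers only 60 bases of a transcript, so this says nothing of the rest of the message.

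The ARE was searched for as TGACNNNGC, on both strands, from 250 bases before to 50 after the start site in RefSeq promoter windows of GRCh38.p14. The 8 genes with an entry had 9 windows, as TXNRD1 had 2, and 4 of the 9 held it (1 of PIR, 1 of GCLM and both of TXNRD1), beside 13.3% of 35116 windows of all genes. It is printed here in capitals because it is the feature that defines the pathway, with each window read along its own gene. The PIR match lies from 27 to 35 bases after the start site, the GCLM match from 34 to 26 bases before it, and a TXNRD1 match from 99 to 91 bases before it. Further matches lie at this start site and before the other start site of TXNRD1. The matches of PIR and GCLM are on the strand opposite to the gene, so the motif is seen there in its reverse complement.
PIR, chrX:15493288-15493317, minus strand: gccgcgaagcGCTGAGTCAcggtgaggcta
GCLM, chr1:93909445-93909474, minus strand: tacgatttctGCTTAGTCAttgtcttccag
TXNRD1, chr12:104215670-104215699, plus strand: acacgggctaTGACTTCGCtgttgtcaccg
A match is a description of the letters and not a site shown to bind NRF2. A window without a match says nothing of sequence farther from the start site, which was not searched. HMOX1 and FTH1 had no entry in the promoter table.

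All 14 probes were well above background in both channels on all 8 arrays. The weakest signals were those of OSGIN1, with raw Cy3 values of 29.2 to 45.6, and NQO1, with 34.0 to 124, on arrays whose median spot read 22.7 to 24.9. In GRCh37 coordinates the PIR probe lies at chrX:15403058-15403117 on the minus strand and the HMOX1 probe at chr22:35790122-35790181 on the plus strand, and an annotation of exons was not used here. HMOX1 had 10 spots on each array and every other probe had 1, so only for HMOX1 could an error within an array be given. A loess fit set the centre of each array. On this scale the median ratio of all genes lay between -0.00 and 0.02.

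Before the results, the mocks were compared, since each ratio rests on one. Mock levels over 12744 genes correlated at 0.999 within T24 and within 786-O, at 0.996 between the mocks of both bisamide arrays, and at 0.991 to 0.992 between these and the PC3 mock of the miR-125b-1-3p array. That mock stood apart. Its HMOX1 level was 8.80 on the log2 scale against 8.02 and 7.80, and its GCLM level was the lowest at 9.11. Of the markers chosen for the lines, KLK3 (prostate-specific antigen) read 13592 in C4-2 and at most 22.6 elsewhere, and CDH6 was above background only in 786-O, at 153 to 164. PAX8, a renal marker, read 235 to 239 in 786-O but also 390 to 423 in T24. The urothelial markers UPK2, UPK3A and GATA3 were not well above background in T24, while the epithelial keratins KRT8 and KRT18 were in all lines.

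HMOX1 encodes the enzyme that opens the heme ring and releases iron, biliverdin and carbon monoxide. It had the highest ratio of all measured genes on both 786-O arrays. On the miR-532-5p array the 10 spots read 384 to 521 in the mock channel and 2505 to 3529 in the treated channel, a log2 ratio of 2.74 ± 0.039 (SD over 10 spots), or 6.66-fold, first of 15669 genes. With miR-532-3p the spots read 378 to 492 and 3621 to 4728, a log2 ratio of 2.60 ± 0.024 (SD over 10 spots), or 6.08-fold, first of 15442 genes. Raw treated spots lay above raw mock spots on all 8 arrays, whatever the sign of the ratio, so this is no sign of a rise. The ratios of both arrays stayed between 2.55 and 3.14 under every other setting tried. The spread over spots is technical and does not stand for the spread between cultures. In RNA of whole cultures, more cells expressing a gene and more RNA per cell cannot be told apart.

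On the other arrays the same probe gave smaller ratios of both signs. Bisamide in PC3 gave 0.67 ± 0.051 at 24 h (SD over 10 spots) and 0.17 ± 0.030 at 48 h. miR-199-3p in C4-2 gave 0.46 ± 0.026, and miR-125b-1-3p in PC3 gave -0.30 ± 0.045. In T24 the ratio was -0.06 ± 0.028 for miR-140-5p, while the 3p strand gave -0.13 ± 0.023. The PC3 array of miR-125b-1-3p is the one whose mock stood apart, and its treated level of 8.50 lay between its own mock at 8.80 and the mocks of both bisamide arrays. The part of that mock in the negative ratio was not tested. The T24 signs depended on the processing: median centring over the probes well above background gave 0.66 for miR-140-5p and 0.48 for the 3p strand, and for miR-140-5p an offset of 0 gave 0.0157 and plain background subtraction 0.0044.

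**Figure D1:**
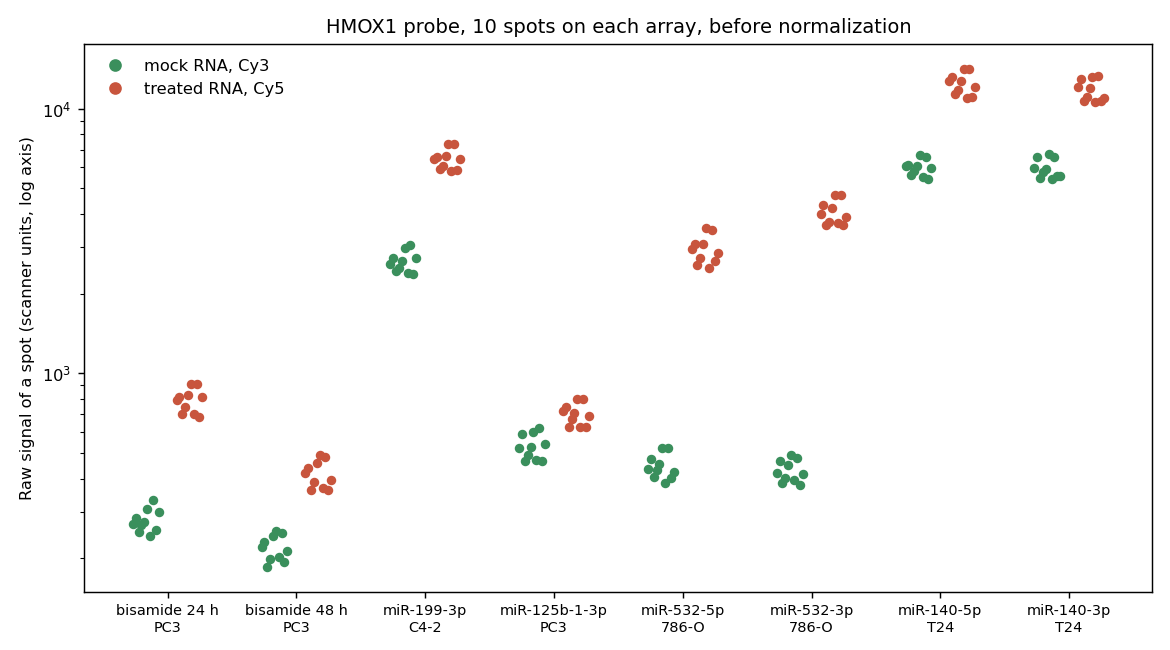
Raw scanner signal (log axis) of the 10 HMOX1 spots on each of the 8 arrays, mock RNA in green and treated RNA in red, before normalization. Cy5 was the brighter channel for this probe on every array, and the gap was widest on both 786-O arrays, where mock spots read 378 to 521 and treated spots 2505 to 4728.

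The largest HMOX1 ratios came from 786-O, whose mock level lay between those of PC3 and C4-2. These cells received only the strands of miR-532, which no other line received. The line, its mock RNA, the miRNA and transfection itself therefore cannot be told apart as the source of these ratios. Both 786-O arrays may carry the same mock RNA, so their ratios may not be separate comparisons. The mock level was 12.84 in T24 (12.82 and 12.86 on 2 arrays), 12.17 in C4-2 (1 array), 9.90 in 786-O (9.90 and 9.90 on 2 arrays) and 8.21 in PC3 (7.80, 8.02 and 8.80 on 3 arrays), all log2 signals. From T24 to PC3 this is a difference of 4.64, or 24.9-fold, against a pooled SD between arrays of a line of 0.37. Neighbours in this order were at least 1.82 SD apart, the closest pair being T24 and C4-2. This SD has 4 degrees of freedom, and C4-2, with 1 array, adds nothing to it. Arrays of a line may carry the same mock RNA, so the SD may be technical. Here and below, gaps in SD do not stand for the spread between cultures. Without the PC3 mock that stood apart the difference was 4.93 and the pooled SD 0.090, a choice made after its level had been seen. Before scaling between arrays, raw HMOX1 mock signals overlapped between 786-O (428 to 445) and PC3 (219 to 529). After miR-532-5p and miR-532-3p, 786-O cells read 12.64 and 12.50, within the range of 12.17 to 12.86 of the C4-2 and T24 mocks. The range of mock levels over the 4 lines was larger than 2.0 for 9.37% of 20452 genes, and among the 10 targets for HMOX1 and PIR only. As both were chosen with these values known, nothing is read from that count.

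PIR was below 0 on 6 of 8 arrays. Raw mock and treated signals were 1444 and 1934 with bisamide at 24 h, 1366 and 1599 at 48 h, and 1281 and 1794 with miR-125b-1-3p, all in PC3. The normalized log2 ratios were -0.45, -0.62 and -0.30. The raw treated signal was thus the higher one on all 3 arrays, and the ratio is below 0 after the loess fit, which removes the dye difference of probes of like brightness. With median centring over probes well above background the 3 ratios were -0.10, -0.27 and -0.00, so their size depends on the scaling. Centring over all probes gave 0.34, 0.155 and 0.40, but it put the median of all genes at 0.45, 0.44 and 0.42, and relative to that median PIR stood at -0.11, -0.28 and -0.015.

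In 786-O, PIR read 164 and 108 on the array of miR-532-5p, a ratio of -0.33, and 173 and 144 on that of its 3p partner, a ratio of -0.49. T24 gave opposite values for the strands of one precursor: 565 and 535 for miR-140-5p, a ratio of -0.73 or 1.66-fold lower, and 533 and 1533 for the 3p strand, a ratio of 0.66 or 1.59-fold higher. Both signs held under all other settings tried. PIR had rank 57 of 17532 genes from the top on the miR-140-3p array and rank 17440 of 17624 on the miR-140-5p array. C4-2 cells with miR-199-3p read 763 and 1331, a ratio of 0.12. PIR had 1 spot an array, so none of these values carries an error.

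The mock level of PIR had an order unlike that of HMOX1. It was 10.64 in C4-2, 10.19 in PC3 (10.05 to 10.27 over 3 arrays), 9.27 in T24 (9.22 and 9.33) and 8.57 in 786-O (8.54 and 8.59). The range was 2.07, or 4.20-fold, against a pooled SD of 0.097, and neighbours were at least 4.60 SD apart. The limits given for the SD of HMOX1 hold here too. Raw mock signals of PIR were 763 in C4-2 and 1281 to 1444 in PC3, so the order of these lines rests on the scaling between arrays. The line with the highest HMOX1 level, T24, came after both prostate lines in PIR.

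**Figure D2:**
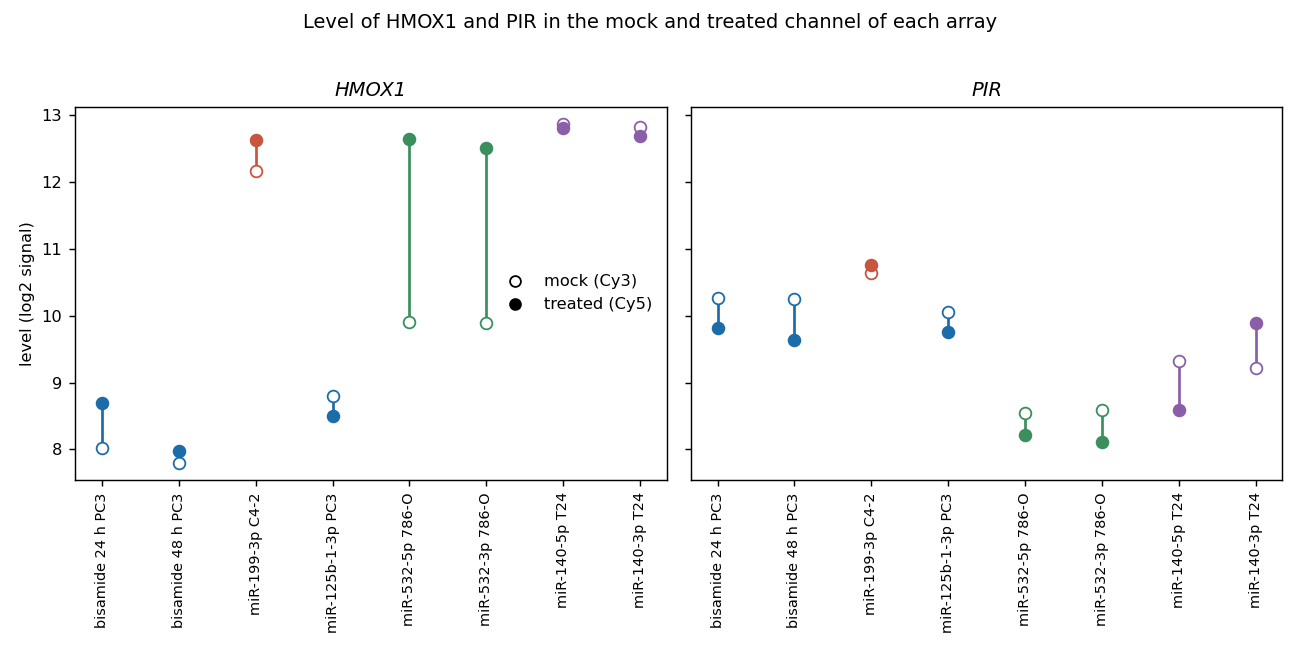
Normalized log2 signal of HMOX1 (left) and PIR (right) in the mock channel (open circles) and the treated channel (filled circles) of each array, coloured by cell line. HMOX1 in 786-O passed from 9.90 in the mock to 12.64 and 12.50 in treated cells, while PIR was lower in the treated channel on 6 arrays and higher on those of miR-199-3p and miR-140-3p.

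Ferritin stores iron in a shell of heavy and light chains, encoded by FTH1 and FTL. The FTH1 mock and treated signals were 17874 and 69156 with bisamide at 24 h, and 17309 and 70003 at 48 h, log2 ratios of 0.77 and 0.83. In 786-O the ratio was 0.82 for miR-532-5p and 0.40 for the 3p strand, and on the PC3 array of miR-125b-1-3p it was 0.32. It was negative in C4-2 (-0.62) and on both T24 arrays, at -0.34 for miR-140-5p and -0.20 for the 3p strand. FTH1 had the highest ratio of the 10 genes on both bisamide arrays.

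The 3 FTH1 probes had the same sign on each array. They were not equal in 786-O, where they read 0.38, 0.87 and 0.82 for miR-532-5p, and 0.11, 0.45 and 0.40 for its 3p partner. The probes that read 0.87 and 0.82 overlap, at chr11:61732038-61732096 and chr11:61732071-61732130 in GRCh37, so they are not independent readings. Whether FTH1 passed 0.5 with miR-532-5p thus depended on the probe. With median centring over probes well above background the C4-2 value turned to 0.06 and the T24 values to 0.52 and 0.55. The positive values in PC3 and 786-O kept their sign under all settings tried, but their size depended on the scaling. Bisamide at 24 h gave 0.60 in the scanner ratio and 1.43 with that centring. At 48 h the values were 0.67 and 1.52.

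FTL gave smaller ratios, from 0.10 to 0.34 on 7 arrays and -0.42 with miR-140-5p in T24, which turned to 0.13 with median centring over probes well above background. Its 3 probes lay on the same side of 0 on each array. Its mock level was highest in T24 at 11.61, then 11.23 in 786-O, 10.14 in PC3 and 9.63 in C4-2, each step at least 5.83 SD. Raw mock signals of FTL were 1112 to 1155 in 786-O and 1231 to 1429 in PC3, so the order of these lines rests on the scaling between arrays. The FTH1 mock level varied little, from 14.19 in 786-O to 14.58 in C4-2, and no neighbours in that order were more than 1.18 SD apart.

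GCLC and GCLM are the catalytic and modifier subunits of the enzyme that starts glutathione synthesis. On the scale used here neither passed 0.5 on any array. GCLC lay between -0.35 (miR-199-3p in C4-2) and 0.15 (miR-140-5p in T24). Its C4-2 value did pass with other background corrections, at -0.70 with an offset of 0 or plain subtraction, -0.66 in the scanner ratio and series table and -0.50 with no correction. GCLM lay between -0.20 (miR-199-3p) and 0.38 (miR-532-5p), and was above 0 on the other 7 arrays. The negative GCLM value turned to 0.075 with median centring over probes well above background.

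The values of the GCLM probe are uncertain, since it shares sequence with other probes. It shares at least 15 bases with 20 probes of 20 other genes, while each other probe of the 10 genes shares such a run with at most 1 other gene. Whether other transcripts bound this probe was not tested.

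TXNRD1 and SRXN1 restore thioredoxin and over-oxidised peroxiredoxins. Both were low with miR-199-3p in C4-2, where TXNRD1 read 106 in the mock and 85.1 in the treated channel (-0.54) and SRXN1 read 380 and 350 (-0.65). TXNRD1 was also at -0.50 with miR-532-5p, and SRXN1 reached 0.30 with miR-140-3p. On the 3 PC3 arrays TXNRD1 lay between -0.11 and 0.04 and SRXN1 between -0.12 and -0.07, and the same centring turned SRXN1 to 0.26, 0.24 and 0.16.

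NQO1, a quinone reductase often used as the reference target of NRF2, was at 124 and 106 with miR-140-5p in T24, a log2 ratio of -0.56. On the other T24 array it read 123 and 233, a ratio of 0.23. The remaining ratios lay between -0.21 and 0.20. OSGIN1, an oxidative stress-induced growth inhibitor, stayed between -0.04 and 0.11 on all 8 arrays.

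For these dim probes the offset of 50 added to the signals pulls a ratio toward 0. With an offset of 0, NQO1 read -0.75 in C4-2, -0.77 in 786-O given miR-532-3p and -0.88 in T24 given miR-140-5p, and TXNRD1 read -0.92 in C4-2, -0.93 in 786-O given miR-532-5p and -0.53 in T24 given miR-140-5p. GCLC read -0.70 in C4-2. The counts past 0.5 over the 80 values were then 9 higher and 11 lower, while 3.02% to 12.7% of all genes on an array passed upward and 3.22% to 12.5% downward. OSGIN1 then lay between -0.22 and 0.33. HMOX1, which is brighter than the offset, moved less and read 2.89 and 2.75 on the 786-O arrays.

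**Figure D3:**
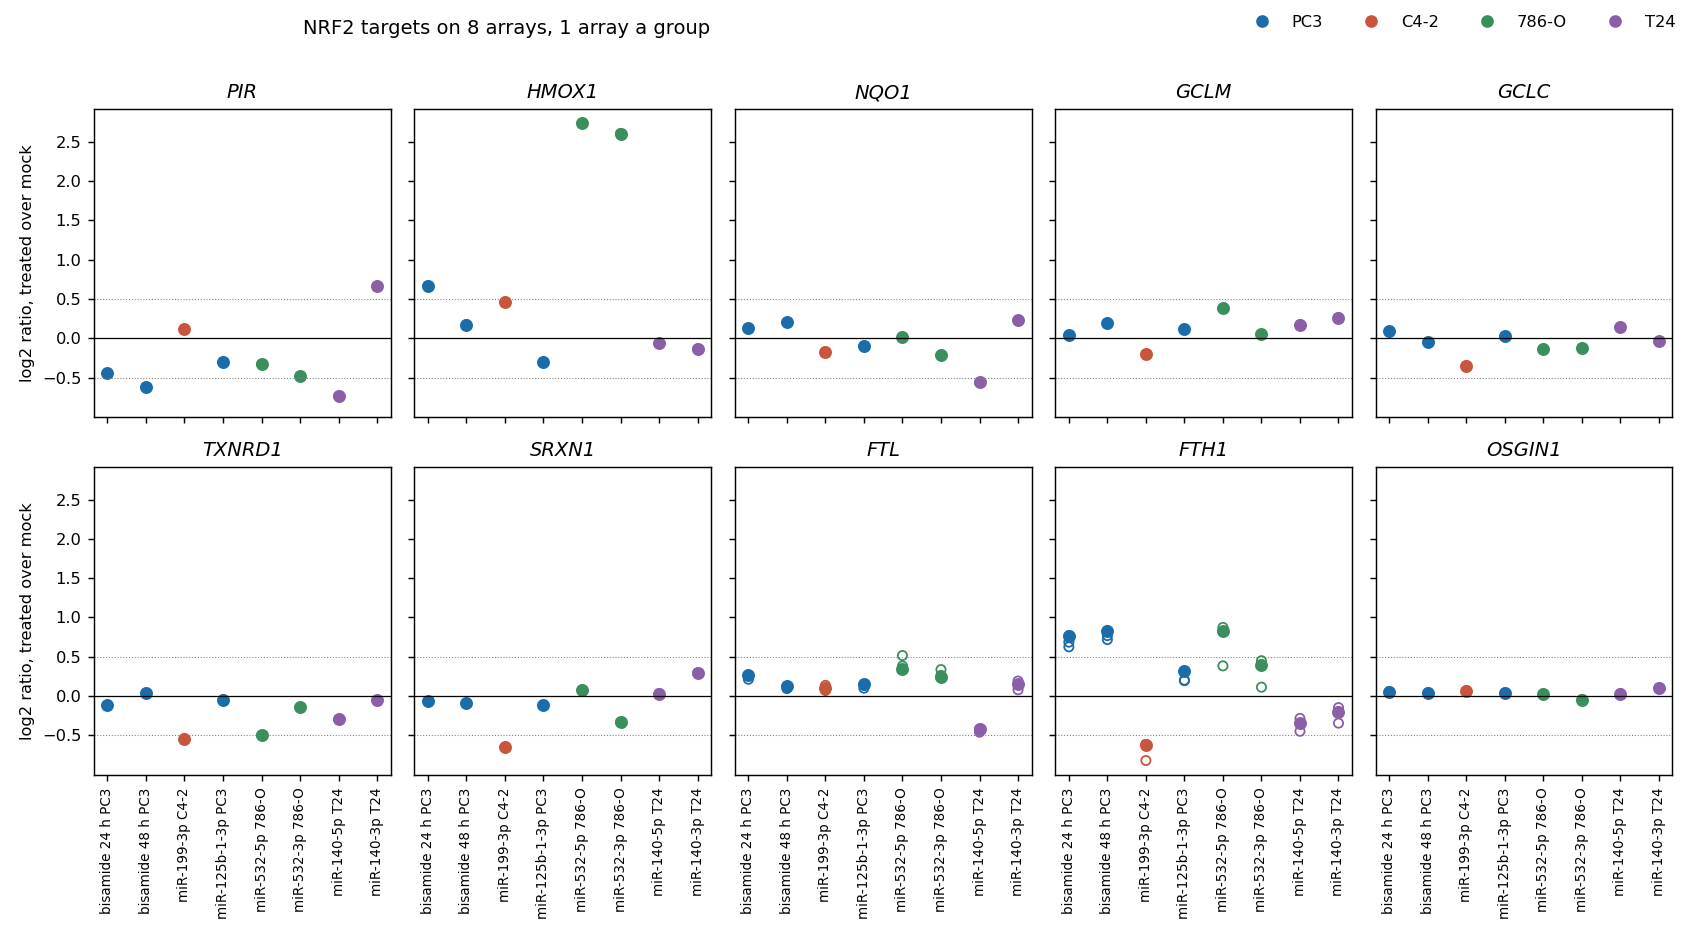
Log2 ratio of treated over mock RNA of the 10 NRF2 targets on the 8 arrays, coloured by cell line. Filled points are the probe that stands for a gene, open points its other probes, and dotted lines mark -0.5 and 0.5. HMOX1 stands out at 2.74 and 2.60 in 786-O, and OSGIN1 lies between -0.04 and 0.11 throughout.

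A size of 0.5 on the log2 scale was used to count targets on each array, beside the share of all genes above background that passed it. Bisamide at 24 h gave 2 of 10 higher, HMOX1 and FTH1, beside 1.05% of all genes, and 0 lower beside 0.4%. At 48 h it gave 1 higher, FTH1, beside 0.915%, and 1 lower, PIR, beside 0.878%. With miR-199-3p there were 0 higher beside 1.76% and 3 lower, TXNRD1, SRXN1 and FTH1, beside 2.73%. With miR-125b-1-3p there were 0 higher beside 1.77% and 0 lower beside 0.883%, so no target passed the size on that array.
In 786-O, miR-532-5p gave 2 higher, HMOX1 and FTH1, beside 3.6%, and 0 lower beside 3.67%. There miR-532-3p gave 1 higher, HMOX1, beside 1.71%, and 0 lower beside 3.84%. In T24, miR-140-5p gave 0 higher beside 1.74% and 2 lower, PIR and NQO1, beside 2.89%, and miR-140-3p gave 1 higher, PIR, beside 0.998%, and 0 lower beside 1.09%. Over all arrays 7 of 80 values were higher and 6 lower. As the genes were chosen with these ratios known, the counts describe them and are no evidence of a response of the pathway. Just outside the size were TXNRD1 with miR-532-5p at -0.50 and PIR with miR-532-3p at -0.49, and just inside it TXNRD1 with miR-199-3p at -0.54 and NQO1 with miR-140-5p at -0.56.

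PIR and HMOX1 were then set against the median of the other 8 targets on each array. That median stayed near 0, at 0.07 and 0.08 with bisamide, 0.03 on the PC3 array of miR-125b-1-3p, -0.28 in C4-2, 0.05 and -0.08 in 786-O for the 5p and 3p strands, and -0.13 and 0.13 in T24 for the 5p and 3p strands. HMOX1 lay above it by 2.68 and 2.69 on the 786-O arrays, by 0.74 in C4-2 and by 0.60 with bisamide at 24 h, and differed by -0.33 to 0.09 on the other 4 arrays. PIR was the lowest of the 10 genes on both bisamide arrays, on the miR-532-3p array and on the miR-140-5p array, and the highest on that of miR-140-3p.

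PIR had the sign of that median on 3 of 8 arrays and HMOX1 on 4 of 8. Median centring over all probes, under which the median of all genes above background lay at up to 0.45, gave 5 of 8 for PIR and 8 of 8 for HMOX1, counts that such a shift of all genes itself raises. Over the 8 arrays, which share a slide and in part a cell line, Pearson's r with the median of the other targets was 0.106 for PIR (Spearman's rho 0.167) and -0.052 for HMOX1 (rho -0.143), given as a description with no test. Without the miR-125b-1-3p array the values were 0.112 and -0.001. Between PIR and HMOX1 r was -0.216. Of single targets, the highest r of HMOX1 were with FTL (0.526) and FTH1 (0.433), but its r farthest from 0 was -0.666, with OSGIN1. The highest r of PIR was with OSGIN1 (0.675), whose ratios spanned only -0.04 to 0.11.

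**Figure D4:**
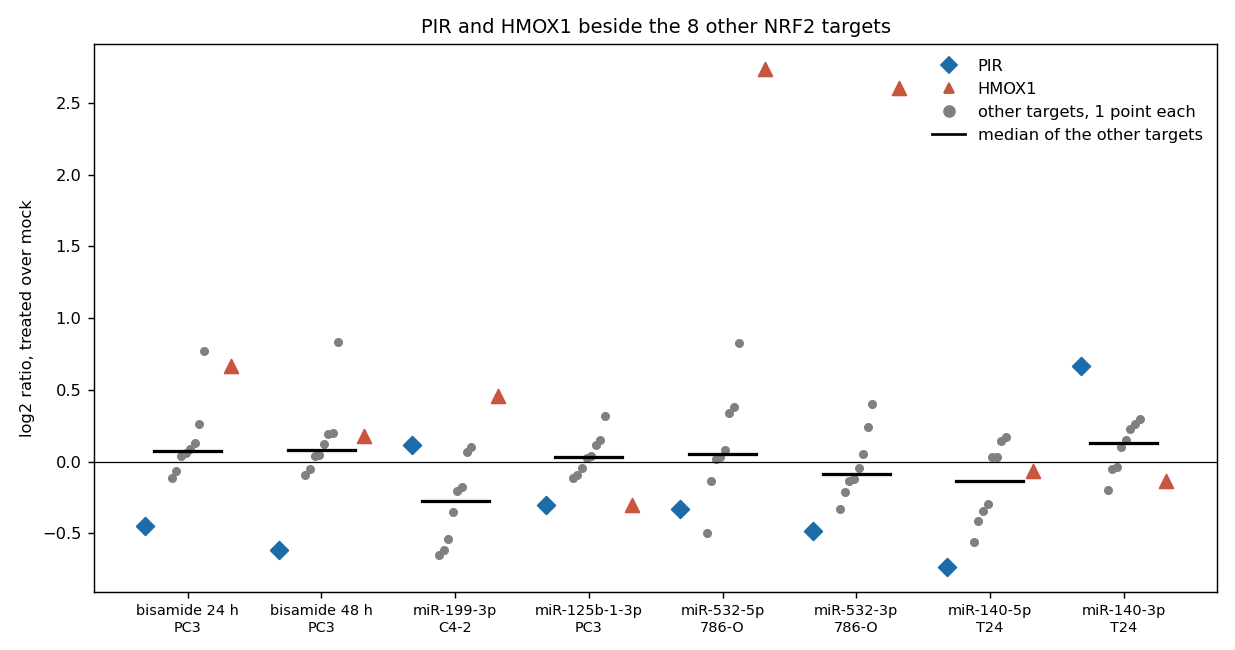
Log2 ratio of PIR (blue diamonds) and HMOX1 (red triangles) on each array beside the 8 other NRF2 targets (grey points) and their median (black line). The median lies between -0.28 and 0.13, PIR lies below it on 6 arrays, and HMOX1 lies 2.68 and 2.69 above it in 786-O.

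The genes whose ratios over the 8 arrays were most like those of HMOX1, of 10102 genes above background throughout, were CCNB1IP1, MRPL30, NOL8, FCRLB and FBXO30, with r from 0.949 to 0.962. On the 786-O arrays these genes had ratios of only 0.23 to 0.57, against 2.60 and 2.74 for HMOX1. The genes most like PIR were DLG5-AS1, SLC18A3, MEGF9, POLA2 and AMER1, with r from 0.945 to 0.963. They did not always have its sign. With bisamide at 24 h and 48 h, DLG5-AS1 read 0.11 and 0.02 and SLC18A3 0.09 and 0.03, against -0.45 and -0.62 for PIR. MEGF9, POLA2 and AMER1 were below 0 on both of these arrays. All r over 8 arrays are imprecise, and 1% of all named genes had an r above 0.833 with HMOX1 or above 0.806 with PIR.

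The mock levels of the other targets had orders of their own. NQO1 was highest in T24 (7.35), while GCLC and TXNRD1 were highest in PC3 (8.64 and 8.54). TXNRD1 was lowest in T24 (7.005), and GCLC lay between 7.19 and 7.37 in T24, C4-2 and 786-O, neighbours at most 1.86 SD apart. SRXN1 ran from 9.74 in PC3 to 8.96 in 786-O. GCLM and OSGIN1 ranged over 0.34 and 0.18, and for GCLM no neighbours were more than 1.02 SD apart. Thus T24 had the highest HMOX1, NQO1 and FTL levels of the 4 lines and the lowest TXNRD1 level.

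**Figure D5:**
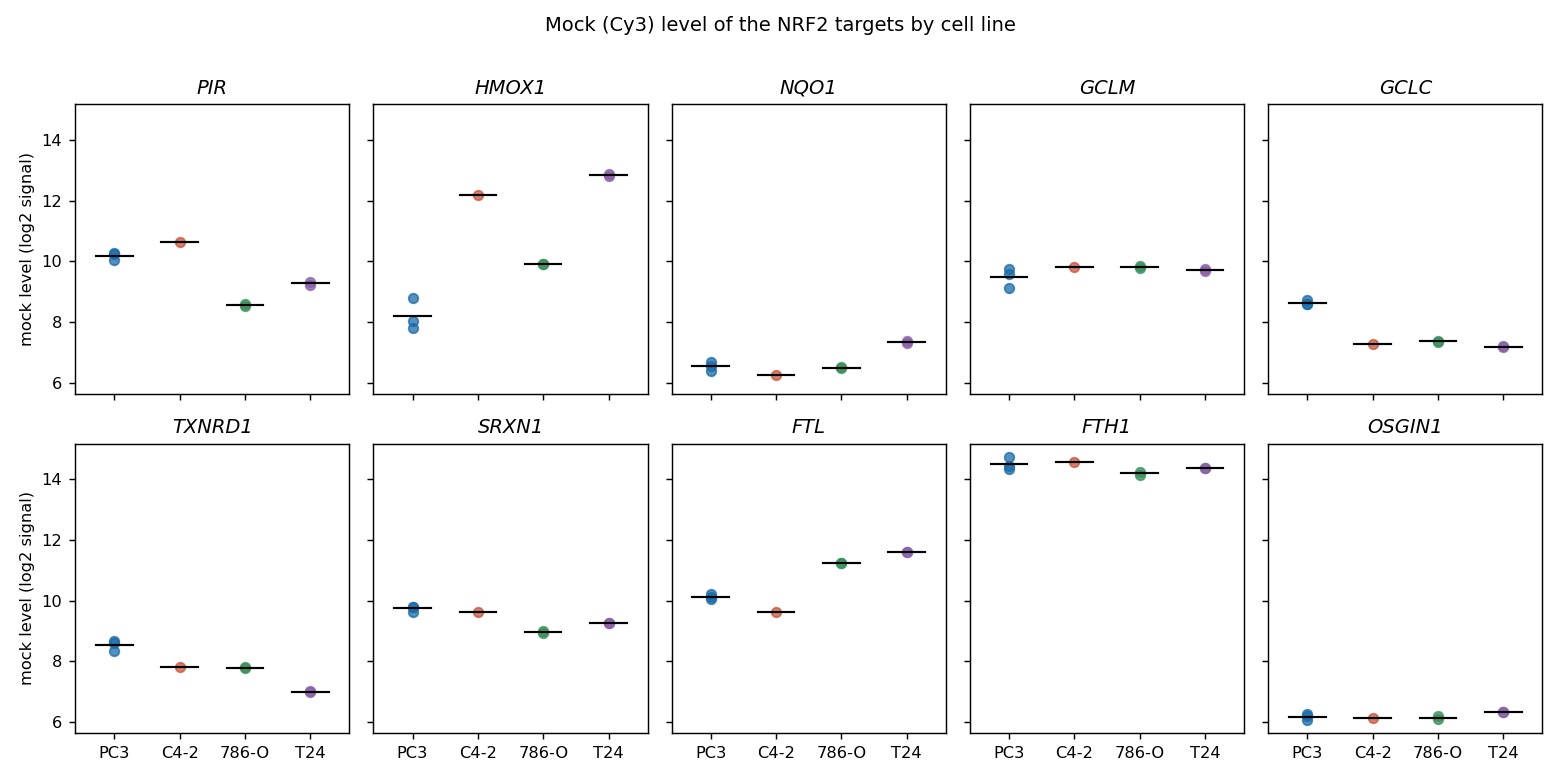
Normalized log2 signal of the 10 NRF2 targets in the mock (Cy3) channel of PC3 (3 arrays), C4-2 (1), 786-O (2) and T24 (2), 1 point an array and a line at the mean. The means of the lines span 8.21 to 12.84 for HMOX1 and 8.57 to 10.64 for PIR, whereas those of FTH1 stay between 14.19 and 14.58, and levels of different probes are not comparable.

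Of the regulators, KEAP1 was at or slightly below 0 on all arrays (-0.32 to -0.03), and BACH1 lay between -0.12 and 0.39, with -0.03 and 0.22 on the 786-O arrays where HMOX1 was high. NFE2L2, which encodes NRF2, gave raw Cy3 signals of 19.1 to 22.7 and was not well above background in either channel on any array, so its ratio has no meaning here. In all, 10 or 11 of 12 regulators could be read on an array, and their median ratio was -0.10 to 0.19. Regulators passed 0.5 on the following arrays only. With miR-125b-1-3p, 1 of 11 was higher, NFE2L3 (0.57), beside 1.77% of all genes. With miR-532-5p, 1 of 10 was higher, beside 3.6%, and with miR-532-3p 1 of 10 was lower, beside 3.84%. With miR-140-5p, 2 of 10 were lower, beside 2.89%. With so few genes, nothing is read from these counts.

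The wider pathway was read from 6 lists of 77 genes, 76 of them on the array. With bisamide at 24 h, 5 of 71 measured genes were higher, beside 1.05% of all genes, and 1 lower, beside 0.4%. SLC7A11, the cystine carrier that feeds glutathione synthesis, stood at 1.71 and its partner SLC3A2 at 0.91, while the carbonyl reductase CBR3 stood at -0.56. At 48 h, 4 of 70 were higher, beside 0.915%, and 1 lower, beside 0.878%, with SLC7A11 at 0.73, the drug exporter ABCC3 at 0.69 and the glutathione transferase GSTP1 at -0.54. All of the higher genes at both times except ABCC3 and SESN2 belonged to the glutathione list, in which 3 of 14 genes were higher at each time. The medians over all 6 lists were 0.01 and -0.02, beside 0.01 for all genes on each array.

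With miR-199-3p in C4-2, 1 of 63 list genes was higher, beside 1.76% of all genes, and 5 were lower, beside 2.73%. SLC7A11 was at -1.63 there, IDH1, the cytosolic isocitrate dehydrogenase that makes NADPH, at -1.96, and the transferrin receptor TFRC at 0.58. With miR-125b-1-3p in PC3, 2 of 73 were higher, beside 1.77%, and 2 lower, beside 0.883%, namely NFE2L3 (0.57), the iron exporter SLC40A1 (0.56), the thioredoxin inhibitor TXNIP (-0.56) and the biliverdin reductase BLVRB (-0.50).

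Both 786-O arrays, alike in HMOX1, were unlike in the lists. With miR-532-5p, 3 of 67 genes were higher, beside 3.6% of all genes, and 2 lower, beside 3.67%, among them TXNIP (1.22), the aldo-keto reductases AKR1C3 (0.73) and AKR1B1 (-0.66), and the heme transporter SLC48A1 (-0.80). With miR-532-3p, 0 of 68 were higher, beside 1.71%, and 11 lower, beside 3.84%, with AKR1B10 at -1.29 and the peroxiredoxin PRDX1 at -0.88, and a median of -0.13 beside -0.00 for all genes. HMOX1 was thus the one gene of the 10 targets and the 6 lists that passed 0.5 upward on that array. The difference between both arrays was not tested.

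In T24, miR-140-5p gave 0 of 67 list genes higher, beside 1.74% of all genes, and 9 lower, beside 2.89%, with SLC48A1 at -1.65 and ABCC3 at -1.10. There miR-140-3p gave 0 of 67 higher, beside 0.998%, and 2 lower, beside 1.09%, ABCC3 at -0.66 and AKR1B1 at -0.63. SLC48A1, which brings heme into the cytosol, was thus below -0.5 on 1 array of 786-O and 1 of T24, while the other array of each line read -0.10 and 0.14, and ABCC3 was above 0.5 with bisamide and below -0.5 on both T24 arrays. None of these counts has a test, and the lists were written with earlier results of these arrays known.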

How the data were processed

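Per the file headers, all arrays lay on 1 slide, which the authors read with Agilent Feature Extraction 11.5.1.1 (design build GRCh37). The deposited files hold the mean intensity of each spot, its local background and a log10 ratio from the scanner software. The deposited series table holds the same log10 ratio. Mock was Cy3 and treated Cy5 throughout.

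Intensities were corrected with normexp (offset 50) and normalized by loess within each array in limma 3.58.1 (R 4.3.3), which gave log2 ratios, checked on simulated data. Channel levels were made comparable between arrays by Aquantile. Control and outlier spots (126 to 181 an array) were left out, spots of a probe were averaged, and each gene was represented by its brightest probe. A gene counted when well above background in both channels and past 0.5. With 1 array a group no p-value was computed, and precision is limited by the number of arrays. Genes were named by rule: the 10 targets, NFE2L2, KEAP1, BACH1, per array up to 2 list genes at each end past 0.5, and the 5 genes most like HMOX1 or PIR.

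All 10 symbols matched RefSeq by accession. A marker gene and a probe sequence are not reported here. The targets, lists, sizes and markers were chosen with earlier results of these data known.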

Additional observations from a re-analysis of the deposited data

How the results depend on the processing

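No paired analysis was possible because no group has a second array. Of 212 checks of PIR, HMOX1 and the counts under other settings, 149 changed a value by less than the spread between mocks of a line or a count by less than 1.5 times, and 63 changed it by more. Of 160 ratios of PIR and HMOX1 among these, 13 changed sign, 1 of them from a value past 0.5. HMOX1 kept its sign and its size past 0.5 in 786-O under every setting tried. The spread used for HMOX1 was its pooled SD of 0.37, which was 0.090 without the PC3 mock that stood apart. Changes of HMOX1 smaller than 0.37 therefore count as within the spread.
Centring each array on the median over all probes, most of them near background, took PIR with bisamide at 48 h from -0.62 to 0.155, and FTH1 with miR-199-3p to 0.35. The other PIR ratios became 0.34 (bisamide 24 h), 0.40 (miR-125b-1-3p), 0.76 (miR-199-3p), -0.45 (miR-532-5p), -0.20 (miR-532-3p), -0.11 (miR-140-5p) and 1.42 (miR-140-3p). Those of HMOX1 became 1.33 (bisamide 24 h), 0.78 (bisamide 48 h), 0.32 (miR-125b-1-3p), 1.26 (miR-199-3p), 3.14 (miR-532-3p), 1.001 (miR-140-5p) and 0.92 (miR-140-3p), without a change beyond the spread for miR-532-5p. The counts became 42 higher and 1 lower, and the sign counts 5 for PIR and 8 for HMOX1. Of all genes on an array, 2.34% to 44.9% then passed 0.5 upward and 0.026% to 5.94% downward. These values and counts follow in part from a shift of all genes, whose median lay at -0.03 to 0.45. Relative to that median 2 of these 16 ratios changed sign, both of HMOX1 in T24.
Centring over probes well above background gave PIR -0.10 (bisamide 24 h), -0.27 (bisamide 48 h), -3.29e-05 (miR-125b-1-3p), 0.47 (miR-199-3p), -0.37 (miR-532-3p), -0.45 (miR-140-5p) and 0.98 (miR-140-3p), and HMOX1 0.97 (miR-199-3p), 2.97 (miR-532-3p), 0.66 (miR-140-5p) and 0.48 (miR-140-3p). FTH1 with miR-199-3p turned to 0.0608, and the counts became 20 higher and 2 lower.
Less the median over arrays of the other lines, PIR read -0.12 (bisamide 24 h), -0.29 (bisamide 48 h), 0.0301 (miR-125b-1-3p), 0.56 (miR-199-3p), 0.0439 (miR-532-5p), -0.11 (miR-532-3p), -0.345 (miR-140-5p) and 1.05 (miR-140-3p), with a sign count of 5, and HMOX1 0.21 (bisamide 24 h), -0.29 (bisamide 48 h), -0.76 (miR-125b-1-3p), -0.63 (miR-140-5p) and -0.70 (miR-140-3p).
PIR in 786-O moved to -0.45 for the 5p strand of miR-532 and -0.66 for the 3p strand in the scanner ratio and in the deposited series table, to -0.46 and -0.67 with an offset of 0, to -0.46 and -0.66 with plain subtraction, and to -0.61 for the 3p strand with no correction. The count of lower values was 12 in the scanner ratio and series table and 11 with an offset of 0 or plain subtraction. Of all genes on an array, 5% to 14.9% passed downward in the scanner ratio and series table. That share was 3.22% to 12.5% with an offset of 0 and 3.59% to 12.4% with plain subtraction. At a threshold of 1.0 the counts were 2 and 0. The share of all genes past that size is not given here, so nothing is read from these counts. The PIR difference between C4-2 and 786-O mocks was 2.18 with no correction and 1.95 with quantile normalization.
The mock of the miR-125b-1-3p array was left out after seeing the data, which gave 4.93 for the HMOX1 difference and 2.07 for PIR, and sign counts of 3 for PIR and 4 for HMOX1 over 7 arrays. Among the other targets, 234 of 656 such checks moved a value by more than the spread, and 59 of 640 ratios changed sign, 2 of them, both of FTH1, from a value past 0.5. Signal over background limits NQO1 and OSGIN1.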
